A study of Mus musculus with 4 samples.

Results

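The Gadd45 genes, the p53 gene Trp53 with its regulators Mdm2 and Mdm4, and 4 genes for inhibitors of cyclin-dependent kinases (Cdk) were examined for N6-methyladenosine (m6A) peaks. These 10 genes were chosen by name, with earlier results of these data known, from 21951 protein-coding genes of the annotation. A peak was given to a gene when its summit, the position of strongest signal, lay in an exon of that gene. By this rule 14 of 15635 peaks of m6A IP replicate 1 and 11 of 14872 peaks of m6A IP replicate 2 belonged to the set.

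m6A-seq had been performed on Kit+ foetal liver cells of C57BL/6 mice, enriched with magnetic beads. RNA was fragmented, fragments with m6A were pulled down with an antibody (IP), and both these and unselected fragments (input) were sequenced. The series has 4 samples, IP replicates 1 and 2 and input replicates 1 and 2, and the 2 IP replicates are described as biological in the methods. Per the methods the cells were Ythdf2 CTL, that is Ythdf2 fl/fl without Cre, and that allele makes a working fusion of GFP with YTHDF2. All samples share this genotype, so no genotype, treatment or time is compared, and the age of the foetuses is not given in the sources used here. The labels give total RNA for the IP samples and polyA RNA for the input samples.

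Of 8 stem and progenitor cell markers, 6 carried a peak in both replicates, among them Cd34, Gata2 and Runx1, whereas Kit itself and Myb had none. A peak in both replicates was also found for 4 of 6 erythroid markers and 1 of 4 hepatocyte markers (Apoa1). The same held for 1 of 3 macrophage markers (Csf1r) and 1 of 3 lymphoid markers (Pax5). Over all protein-coding genes the share was 30.9%, and the hepatocyte, macrophage and lymphoid counts lay near it. Afp, a marker of foetal hepatocytes, had a peak in replicate 1 only, and Alb and Ttr, abundant in hepatocytes, had none. A peak needs both the RNA and its methylation, so these counts bear weakly on which cells were present, and the part of other cells in the peaks below was not tested.

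p53 is a transcription factor that is stabilized by DNA damage and turns on genes that halt the cell cycle. Among its best known targets are Cdkn1a, Gadd45a and Mdm2, and the Mdm2 protein in turn marks p53 for degradation, which closes a feedback loop. Inhibitors of the Cip/Kip family (Cdkn1a, Cdkn1b and Cdkn1c) bind a broad range of cyclin-Cdk complexes, while those of the Ink4 family, such as Cdkn2c, bind Cdk4 and Cdk6. In hematopoietic stem cells (HSCs) p53, Cdkn1c and Cdkn2c are known for holding cells in quiescence or limiting self-renewal. m6A is placed mostly at GGAC and related sequences, and YTHDF2 binds m6A and promotes decay of the transcript.

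The sequences below are candidate m6A contexts close to the summits, and are shown because peaks are described relative to them. They are the GGAC followed by A, C or T that was nearest to a summit of replicate 1 in the gene, except in Gadd45a and Gadd45b, where the related AAACT or AGACT was nearer. In Cdkn1b, GAACT was also nearer and is not shown. Capitals mark the motif, and the A before its C is the adenosine that would be methylated. All are on the sense strand, 5′ to 3′, with GRCm38 coordinates. A match is a description of the sequence and not a mapped m6A.
Gadd45a, chr6:67035542-67035566, minus strand, 3′ UTR: aggattacagAAACTgatgtcaagg
Gadd45b, chr10:80931900-80931924, plus strand, 3′ UTR: aggcaagaggAGACTgagactttag
Gadd45g, chr13:51848309-51848333, plus strand, 3′ UTR: gcgaccgcctGGACTtggtacagcg
Trp53, chr11:69580402-69580426, plus strand, 5′ UTR: cagttcattgGGACCatcctggctg
Mdm2, chr10:117690412-117690436, minus strand, coding: aggaaacgcaGGACAaagacgagag
Mdm4, chr1:132992056-132992080, minus strand, coding: ctgaaaagaaGGACAatgaaggaat
Cdkn1a, chr17:29098469-29098493, plus strand, coding: tcggtcccgtGGACAgtgagcagtt
Cdkn1b, chr6:134921038-134921062, plus strand, coding: aactaacccgGGACTtggagaagca
Cdkn1c, chr7:143460889-143460913, minus strand, 5′ UTR: ggcccaagctGGACAggacaagcga
Cdkn2c, chr4:109661493-109661517, minus strand, coding: caggtttcctGGACActgtacaggc
Cdkn2c, chr4:109666475-109666499, minus strand, 5′ UTR: tgggggagtcGGACTacaaaagaaa

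Of the 10 genes, 9 had a peak in both replicates, and Trp53 had peaks in replicate 1 but none in replicate 2. Over all protein-coding genes, 30.9% had an exonic summit in both replicates. In replicate 1 the count was 10 of 10 against 34.4%, in replicate 2 it was 9 of 10 against 33.5%, and in either replicate 10 of 10 against 37.1%. The genes were not drawn at random but chosen with earlier results of these data known. A gene that is not expressed also cannot give a peak. The share of the set is therefore a description, and its excess over all genes cannot be read as a result. Most genes of the set carried a single peak, as did 59.6% of the protein-coding genes with a summit in replicate 1 and 60.2% in replicate 2.

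The position of the peaks differed between the gene families. In the Gadd45 genes 6 of 7 summits lay in the 3′ UTR, within the last exon. In Mdm2 and Mdm4 all 5 summits also lay in the last exon, but 4 of them in its coding part. In Cdkn1a, Cdkn1b and Cdkn1c all 6 summits, each site counted once per replicate, lay within 200 nt of the start codon and none in the last exon. Both summits of Trp53 lay within 200 nt of the start codon as well. The 5′ UTRs of Cdkn1c and Trp53 have only 153 and 157 nt. The Cdkn1c summit of replicate 1 was at nt 6 of the transcript and the first-exon summit of Trp53 at nt 65. For these, nearness to the start codon and to the 5′ end cannot be told apart. Cdkn2c had peaks in its 5′ UTR and in its coding sequence.

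**Figure D1:**
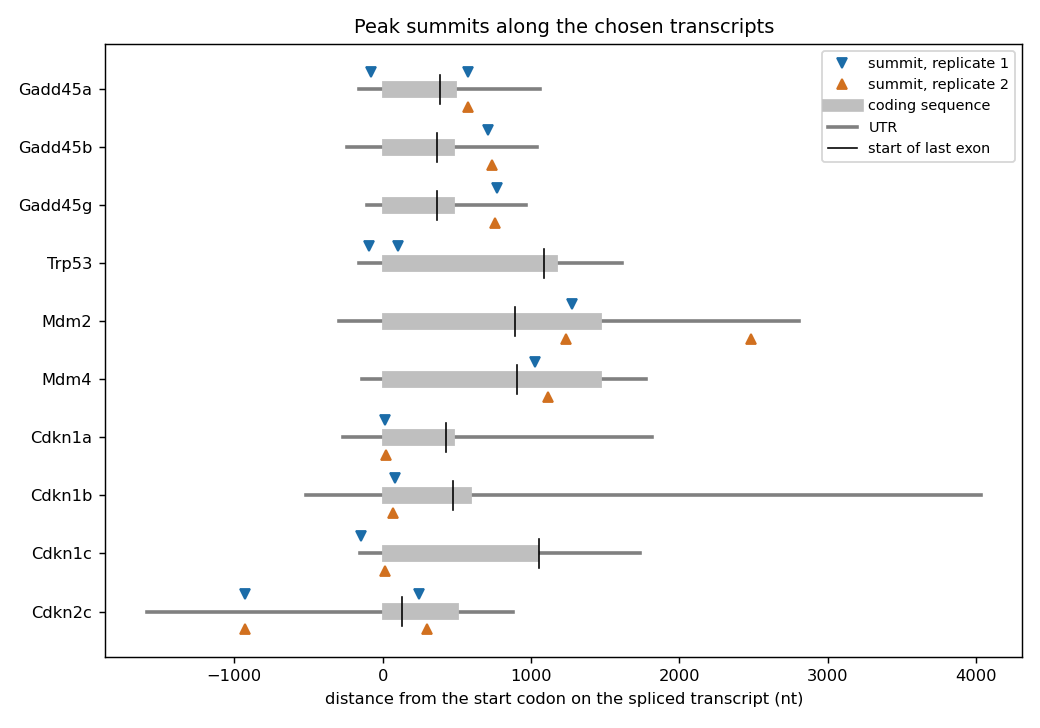
Summits of m6A peaks along the chosen transcript of each gene (x axis, distance from the start codon in nt on the spliced transcript; y axis, gene). Triangles above and below a line are summits of replicates 1 and 2, thick bars are coding sequence, thin lines UTRs and black ticks the start of the last exon. Summits of the Gadd45 genes sit mostly past the coding sequence, those of the Cdkn1 genes near 0. A Cdkn2c peak of replicate 1 in an exon of another transcript is not drawn.

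Over the whole set, 9 of the 24 summits that could be placed on the chosen transcript of 1 gene lay within 200 nt of the start codon, against 15% of 21295 placed summits of all genes. Within 200 nt of the stop codon were 3 of 24, against 30.3%. The contrast at the stop codon depended on the window, since within 400 nt it was 45.8% of the set against 42.6% of all. At the start codon the set stayed higher with 400 nt, at 45.8% against 23.0%. In the last exon were 13 of 24 summits, against 61.3%. The families differ in position, so these pooled shares describe none of them. A site found in both replicates enters once for each, in the set as over all genes, so the summits are not independent.

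Gadd45a, Gadd45b and Gadd45g encode small stress-induced proteins that bind the kinase Map3k4, PCNA and the Cdk1 complex. Each had 1 peak in the 3′ UTR part of its last exon in both replicates. Gadd45g had the strongest peak of the set by q-value.

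The Gadd45g peak (ENSMUSG00000021453.2, chr13:51846678-51848468, plus strand) spanned chr13:51847873-51848420 in replicate 1 and chr13:51847837-51848429 in replicate 2. Its fold enrichment of IP over background was 6.46 in replicate 1 and 8.84 in replicate 2, with −log10 q of 61.3 and 67.8. It rested on 141 IP reads over a background of 24 control reads, and on 129 over 13. Read numbers here and below are those at the summit and not over the whole width of a peak. These −log10 q values ranked above 99.2% of all peaks of replicate 1 and 99.7% of replicate 2. The summits were 292 and 282 nt past the stop codon, 10 nt apart. The transcript has 11 GGAC in 1071 nt, of which 8 lay within the peak of replicate 1 and 9 within that of replicate 2. For 7 of those in each replicate the next base was A, C or T, and the nearest of these, shown above, was 52 and 62 nt downstream of the summits.

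Gadd45a (ENSMUSG00000036390.8, chr6:67035096-67037457, minus strand) had its main peak at chr6:67035407-67035826 and chr6:67035393-67035798. Fold enrichment was 4.19 in replicate 1 and 3.39 in replicate 2, with −log10 q of 41.3 and 28.1 and summits 1 nt apart, 79 and 80 nt past the stop codon. The reads behind it were as many as for Gadd45g, 146 and 138 IP reads, but over a background of 39 and 38 control reads. The only GGAC of this peak was 146 and 145 nt downstream of the summits, whereas the AAACT shown above was 28 and 27 nt away. A further peak lay in its first exon in replicate 1 alone, with the summit in the 5′ UTR, 77 nt before the start codon. It had 3.52-fold enrichment and −log10 q of 6.55 on 29 IP reads.

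Gadd45b (ENSMUSG00000015312.9, chr10:80930073-80932204, plus strand) had far fewer reads at its summits. Its peak at chr10:80931783-80932060 and chr10:80931761-80932057 had 4.45-fold and 7.63-fold enrichment, with −log10 q of 6.23 and 12.2. This came from 19 IP reads over 4 control reads and from 23 over 2. The 95% Poisson intervals of the fold, which cover the counting error of the IP reads with the background held fixed, were 2.77 to 6.82 and 4.96 to 11.3, and overlap. The summits were 232 and 259 nt past the stop codon, with AGACT 36 and 9 nt downstream of them. In all 3 Gadd45 genes the 3′ UTR peak was thus found in both replicates at a distance of 79 to 292 nt from the stop codon, although the IP reads behind it ranged from 19 to 146.

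**Figure D2:**
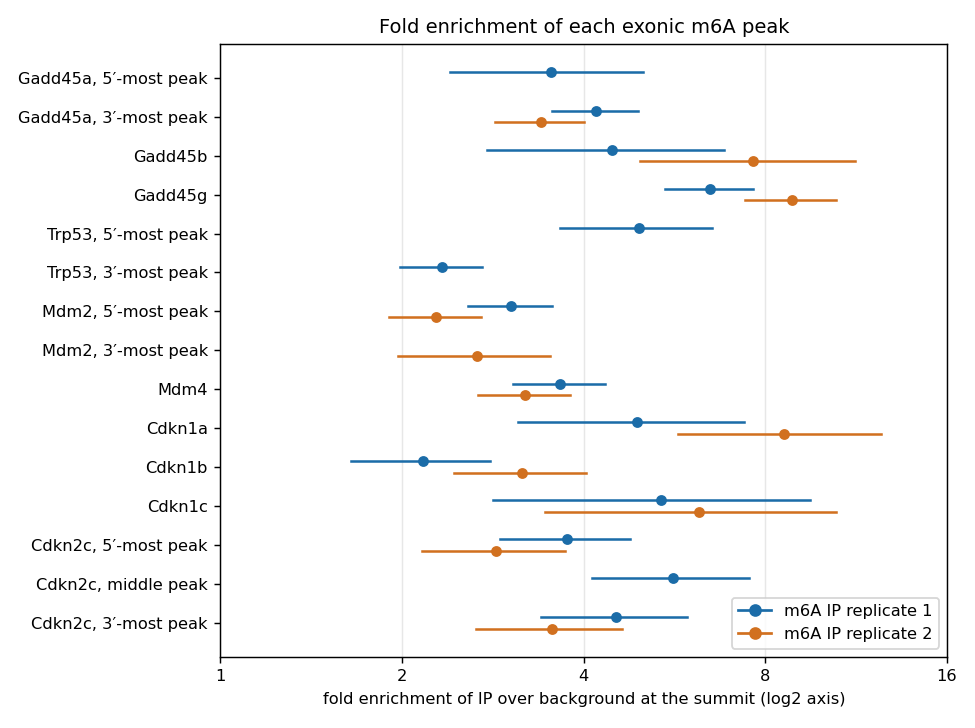
Fold enrichment of IP over background at the summit (x axis, log2 axis) for each exonic peak of the 10 genes (y axis), in transcript order within a gene. Points are the deposited values of replicates 1 and 2, and bars are 95% Poisson intervals of the IP reads with the background held fixed. Values run from 2.16 (Cdkn1b, replicate 1) to 8.84 (Gadd45g, replicate 2), and a row with 1 point is a peak found in 1 replicate.

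Trp53 (ENSMUSG00000059552.13, chr11:69580359-69591873, plus strand) encodes p53. In replicate 1 it had a peak in exon 1 of 11 at chr11:69580292-69580510 and one in exon 4 of 11 at chr11:69587228-69587434. The first had 4.93-fold enrichment, −log10 q of 16.4 and 47 IP reads over 10 control reads, and its summit was 93 nt before the start codon with GGACC 9 nt upstream of the summit. The second had only 2.33-fold enrichment but rested on the most reads of the set, 160 IP reads over 78 control reads, with −log10 q of 17.8. Its summit was 105 nt into the coding sequence, and the only GGAC of the peak, 19 nt downstream, was followed by G. In replicate 2 no peak touched a Trp53 exon. Both peaks of replicate 1 lay near or above the middle of that list by −log10 q, at 54.0% and 57.8% of peaks below them. Of all exonic peaks of replicate 1, 84.2% overlapped a peak of replicate 2. Read-level data were not analysed here, so it is not known how many reads replicate 2 had at these positions.

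Mdm2 encodes the ubiquitin ligase of p53, and Mdm4 a related protein that binds and inhibits p53. Both transcripts had a peak in each replicate in the coding part of the last exon, and these peaks were wide and rested on many reads. The Mdm2 peak (ENSMUSG00000020184.15, chr10:117688875-117710758, minus strand) spanned chr10:117690146-117690850 and chr10:117690155-117690850 in exon 12 of 12. In replicate 1 its fold enrichment was 3.03 and its −log10 q 27.9, from 153 IP reads with 57 control reads as background. In replicate 2 the fold was 2.27 and −log10 q 12.4, from 128 with 53. The summits were 187 and 230 nt before the stop codon, on either side of the GGACA shown above, which was 25 nt upstream of one and 18 nt downstream of the other. The peak held 4 GGAC in each replicate.

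Mdm2 had another peak in replicate 2 only, in its 3′ UTR 1017 nt past the stop codon (chr10:117689121-117689320). It had 2.66-fold enrichment, −log10 q of 5.78 and 47 IP reads, and was the only peak of the set without any GGAC. The nearest was 694 nt upstream of its summit, while GAACT lay 49 nt upstream.

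The Mdm4 peak (ENSMUSG00000054387.13, chr1:132959484-133030561, minus strand) spanned chr1:132991745-132992357 and chr1:132991723-132992346 in exon 11 of 11. Its fold enrichment was 3.65 and 3.20, with −log10 q of 30.3 and 24.1. The IP reads numbered 127 and 130, and the background 39 and 38 control reads. Of the pairs of the set it was the one with the smallest difference in fold between replicates. The summits were 441 and 358 nt before the stop codon, and the single GGAC of the peak, shown above, lay between them.

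Cdkn1a, a main effector of p53 in cell cycle arrest, had a peak over the start of its coding sequence. In Cdkn1a (ENSMUSG00000023067.14, chr17:29090976-29100727, plus strand) the peak spanned chr17:29098276-29098497 and chr17:29098244-29098697 in exon 2 of 3. It had 4.90-fold and 8.58-fold enrichment, with −log10 q of 7.74 and 15.3, from 21 IP reads over 4 control reads and 26 over 2. The summits were 17 and 24 nt past the first base of the start codon, and the GGACA shown above was 56 and 49 nt downstream of them. No summit lay in its 3′ UTR of 1334 nt.

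Cdkn1b, which restrains entry into the cell cycle and is itself removed through Skp2, had the lowest single fold of the set. Its peak (ENSMUSG00000003031.14, chr6:134920401-134925513, plus strand) spanned chr6:134920852-134921102 and chr6:134920863-134921261 in exon 1 of 2. Fold enrichment was 2.16 in replicate 1 and 3.16 in replicate 2, with −log10 q of 4.71 and 10.8. IP reads were similar, 56 and 62, and the background was 29 and 18 control reads. The summits were 81 and 72 nt past the first base of the start codon. A 3′ UTR of 3439 nt, the longest of the set, held no summit.

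Cdkn1c, an imprinted gene that is prominent in quiescent HSCs, rested on the fewest reads. The peak (ENSMUSG00000037664.13, chr7:143458339-143461050, minus strand) spanned chr7:143460737-143461059 and chr7:143460599-143461066, with 5.37-fold and 6.21-fold enrichment and −log10 q of 5.12 and 6.33. It came from 10 IP reads over 1.2 control reads and from 12 over 1. The summits were 303 bp apart on the genome, in exon 1 of 4, 148 nt before the start codon, and in exon 2 of 4, 19 nt past its first base. Only 2.67% of all pairs of peaks had summits farther apart. The intervals of the fold, 2.83 to 9.47 and 3.45 to 10.5, were the widest of the set relative to their values. The peak is thus located to the region from the 5′ end of the transcript to just past the start codon and no closer.

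Cdkn2c (ENSMUSG00000028551.14, chr4:109660876-109667189, minus strand) carried 3 peaks in the list of replicate 1 and 2 in the list of replicate 2. The coding peak at chr4:109661362-109661709 and chr4:109661305-109661721, in exon 3 of 3, had 4.53-fold and 3.54-fold enrichment with 51 IP reads in each replicate. Its −log10 q was 16.1 and 10.8, and the GGACA shown above was 5 nt downstream of one summit and 52 nt upstream of the other. The peak in the 5′ UTR of the long transcript, at chr4:109666205-109666702 and chr4:109666161-109666718, had 3.75-fold and 2.86-fold enrichment. Its −log10 q was 16.1 and 7.83, on 65 and 53 IP reads, and both replicates placed its summit at the same base, 38 nt upstream of a GGACT.

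Since the Cdkn2c peaks in the 5′ region differ in transcript, they were looked at separately. The 5′ UTR of the transcript with the longest coding sequence has 1591 nt, and its summit was 927 nt before the start codon. The further peak of replicate 1, at chr4:109665120-109665331, had its summit in the first exon of another transcript, 48 nt before the start codon there. It was the Cdkn2c peak with the highest fold, 5.63, from 44 IP reads over 8 control reads, and replicate 2 had no overlapping peak.

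Replicates were then compared over the set. Of the 25 peaks of both lists, 20 (80%, 95% exact interval 59.3 to 93.2) overlapped a peak of the other replicate, and these formed 10 pairs. The interval takes the peaks as independent. Both peaks of a pair are counted, so it does not measure the counting error properly. The share among all exonic peaks was 84.2% in replicate 1 and 86.8% in replicate 2. Of the 5 peaks found once, 4 were in replicate 1 (Gadd45a in the first exon, both of Trp53, and Cdkn2c in the other transcript) and 1 in replicate 2 (Mdm2 in the 3′ UTR).

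Fold enrichment was higher in replicate 2 for 5 of the 10 pairs and lower for 5. Over 11524 one-to-one pairs of peaks, in exons or not, the log2 fold of replicate 2 minus replicate 1 had an SD of 0.47. The difference in the set was within that spread for 7 pairs. It exceeded it for Cdkn1a (log2 difference 0.81), Gadd45b (0.78) and Cdkn1b (0.54), and larger differences were found in 9.18%, 10.2% and 21.1% of all pairs. The intervals of the 2 replicates overlapped for each of these 3 genes. As mean ± SD (n = 2), fold enrichment was 7.65 ± 1.68 for Gadd45g, 6.74 ± 2.61 for Cdkn1a, 6.04 ± 2.25 for Gadd45b and 5.79 ± 0.593 for Cdkn1c. It was 3.79 ± 0.565 for the 3′ UTR peak of Gadd45a, 3.42 ± 0.320 for Mdm4, 2.66 ± 0.702 for Cdkn1b and 2.65 ± 0.536 for Mdm2. For Cdkn2c it was 4.03 ± 0.701 in the coding sequence and 3.30 ± 0.632 in the 5′ UTR. The values of Gadd45g overlapped those of Cdkn1a and Gadd45b, and those of Cdkn1c lay within the range of the latter 2, so these neighbours in the order did not differ beyond their spread. Both values of Gadd45g were above both of Cdkn1c. Both values of each of these 4 genes were above both values of the 3′ UTR peak of Gadd45a, Mdm4, Mdm2 and Cdkn1b.

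**Figure D3:**
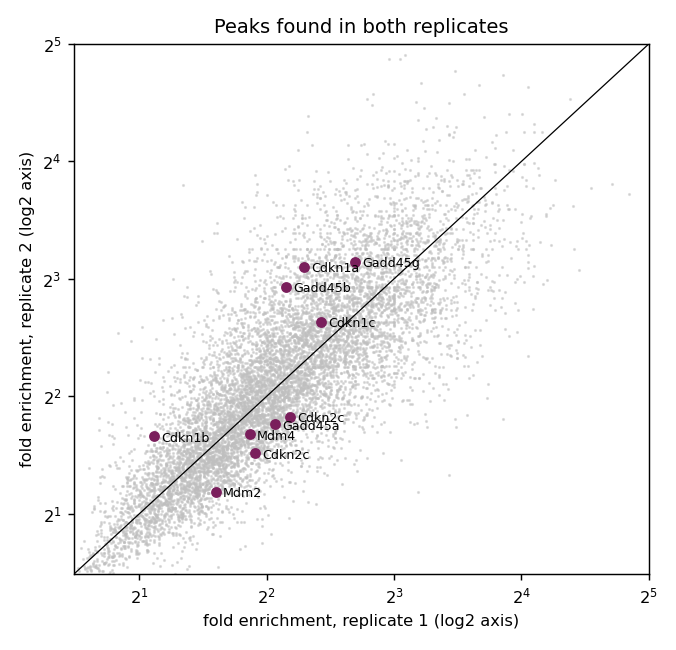
Fold enrichment in replicate 1 (x axis) and replicate 2 (y axis), both on log2 axes, for peaks found in both replicates. Large points are the 10 pairs of the gene set, small grey points other exonic pairs, and the line marks equal values. Cdkn1a, Gadd45b and Cdkn1b lie farthest above the line, and 5 of the 10 pairs lie below it.

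The number of reads at the summit of a peak was recovered from its fold and p-value. Over all exonic peaks of replicate 1, the median IP reads were 18 below 5 control reads and 141 at 50 or more. In replicate 2 they were 22 and 146. The median fold went the other way, as given below. Over all peaks the IP reads had a 99th percentile of 179 in replicate 1 and 174 in replicate 2, and a highest value of 317 and 299. The peaks of the set with the most reads, in Trp53, Mdm2, Gadd45a, Gadd45g and Mdm4, had 127 to 160. The part of a ceiling on IP reads in their folds was not tested. Over all exonic peaks of replicate 1, the median fold was 6.82 where the background was below 5 control reads and 2.24 where it was 50 or more, and in replicate 2 it was 7.43 and 2.05. The 3 genes of the set below 5 control reads in both replicates were Gadd45b, Cdkn1a and Cdkn1c, with 4.45-fold to 8.58-fold enrichment on 10 to 26 IP reads. At 50 or more were Mdm2 in both replicates and the coding peak of Trp53. The folds of Cdkn1c and Mdm2 were thus measured at very different backgrounds, and their ratio cannot be read as a ratio of methylation. Among peaks with a like background, the median fold was 3.42 in replicate 1 (20 to 50 control reads) and 4.92 in replicate 2 (5 to 20) for Gadd45g, whose own folds were higher in both. The coding peaks of Mdm2 and Mdm4 were also above the median of their bands in both replicates, while the 3′ UTR peak of Mdm2 was below it. Cdkn1b, Cdkn1c and both shared peaks of Cdkn2c were below the median of their bands in both replicates. The 3′ UTR peak of Gadd45a was above it in both, and Gadd45b and Cdkn1a were below it in replicate 1 and above it in replicate 2. Of the peaks found in replicate 1 alone, the coding peak of Trp53 and the Cdkn2c peak were above it, and the first-exon peaks of Trp53 and Gadd45a were below.

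**Figure D4:**
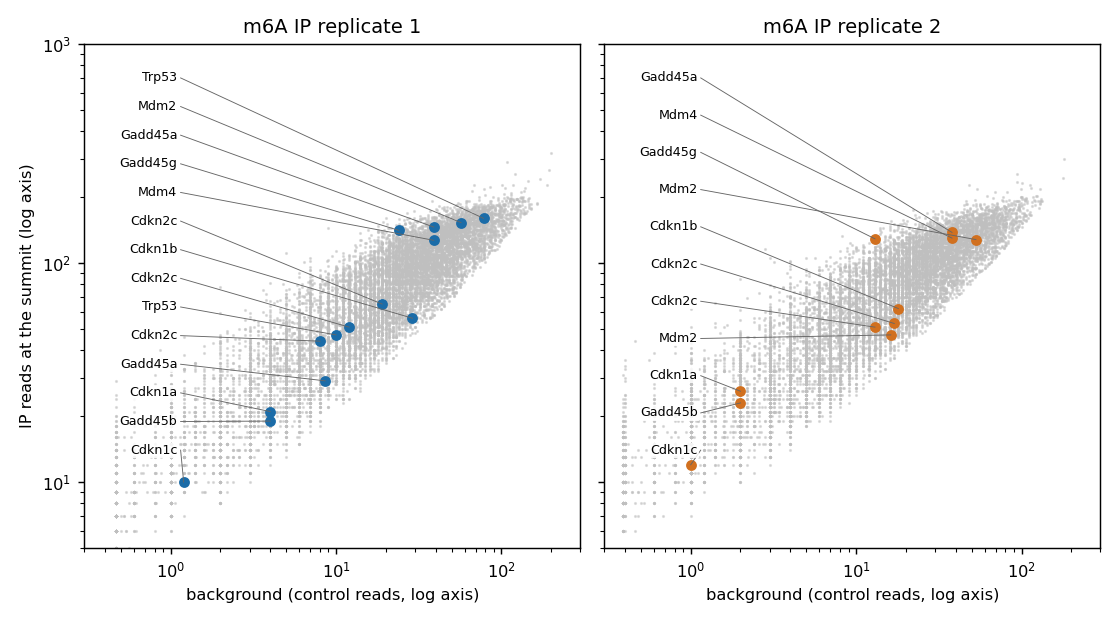
IP reads at the summit (y axis) and background in control reads (x axis), both on log axes, for each replicate. Large labelled points are peaks of the gene set and small grey points other exonic peaks. The set spans 10 to 160 IP reads, with Cdkn1c lowest in both replicates.

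As a group, peaks of the set had a median fold enrichment of 4.32 in replicate 1 and 3.39 in replicate 2, and those of all exonic peaks 4.18 and 4.39. Median −log10 q was 16.3 and 12.2, against 16.1 and 15.8. The median IP reads were 53.5 and 53, against 68 and 66. The set thus lay near the middle of the lists in replicate 1 and somewhat below it in replicate 2, with single peaks from near the bottom to near the top.

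The search for motifs used the spliced transcript, sense strand only, and a motif was counted where all its bases lay within the window. A 5-base motif whose A is 49 nt from a summit, as GGACA in Cdkn1a in replicate 2, can thus fall outside a window of 50 nt, whereas distances in the text are those of the A. GGAC lay within 50 nt of 12 of the 24 placed summits, against 56% of all placed summits. GGAC followed by A, C or T lay within 50 nt of 7, against 51.7%. GGACT, itself such a form, or one of its relatives (GAACT as well as AGACT as well as AAACT) lay within 50 nt of 10, against 57.1%. With a window of 100 nt GGAC was near 83.3% of the set and 76.1% of all, so the set was below the others at one width and above at the other. All but 1 of the 25 peaks held at least 1 GGAC somewhere between their ends. Their median width was 406 bp, and the same share over all exonic peaks is not given here. This count therefore says nothing particular about the set.

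Among the families, GGAC was within 50 nt of 4 of 5 summits in Cdkn2c, 3 of 5 in Mdm2 and Mdm4 and 3 of 6 in the Cdkn1 genes, and of both summits in Trp53. It was within 50 nt of only 1 of 7 in the Gadd45 genes, although each of those 7 peaks held a GGAC. Over all placed summits the share was 56%. The Gadd45 count turns on the window, since the same GGAC of Gadd45g was 51 nt from the summit of replicate 1 and 41 nt from that of replicate 2. In Gadd45b the GGAC was 105 and 78 nt away, and in the first-exon peak of Gadd45a 62 nt. Sites found in both replicates enter these family counts once for each. The Gadd45a and Gadd45b sequences shown above are AAACT and AGACT because these were nearer than GGAC.

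The genes around this set were examined for comparison. Of 45 other genes of the p53 network, 24 (53.3%) had a peak in both replicates, 3 in replicate 1 only and 18 in neither. Over all protein-coding genes the share in both replicates was 30.9%. The lists were also chosen with earlier results of these data known, so these counts are descriptions. Of the regulators of p53, 10 of 14 had a peak in both. Ep300, an acetyltransferase for histones and p53, had 6.05-fold and 15.6-fold enrichment at its strongest peak by q, Trp53bp1, a DNA damage adaptor, 3.70-fold and 7.55-fold, and Crebbp, a relative of Ep300, 3.79-fold and 4.13-fold. The strongest peak of a gene can differ between replicates. The damage kinase genes Atr, Chek1 and Chek2 had no peak, nor did the deubiquitinase gene Usp7.

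Of 20 target genes of p53, 8 had a peak in both replicates, a share of 40% that is nearer to the 30.9% of all genes. Bbc3, a BH3-only inducer of apoptosis, had 8.11-fold and 16.6-fold enrichment with −log10 q of 45.4 and 69.1, above every peak of the set in replicate 2. Sesn2, a stress-induced inhibitor of mTORC1 signalling, had 6.02-fold and 7.62-fold enrichment, and Aen, an apoptosis-enhancing nuclease, 4.48-fold and 3.61-fold. Pmaip1, Bax, Zmat3, Ei24, Fas, Trp53inp1, Rrm2b, Ddb2, Gdf15 and Perp had none in either replicate.

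Among Cdk inhibitors outside the set and their turnover factors, 3 of 6 had a peak in both replicates, against 30.9% of all protein-coding genes. Fbxw7, a ubiquitin ligase subunit for cyclin E, had 5.58-fold and 5.77-fold enrichment, and Skp2, which directs Cdkn1b to degradation, 2.47-fold and 2.70-fold. Cdkn2d, an Ink4 inhibitor, had 3.41-fold and 1.90-fold. Cdkn2b had a peak in replicate 1 only, and Cdkn2a and Cks1b had none. Of the Gadd45 partners, Map3k4 (4.37-fold and 6.90-fold), Pcna (2.34-fold and 1.93-fold) and Mapk14 (1.95-fold and 2.35-fold) had a peak in both replicates, and Cdk1 and Ccnb1 had none.

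Some peaks lay close to a gene of the set but had no summit in its exons. In the last intron of Cdkn1a, 87 bp from an exon, replicate 1 had a peak of 5.34-fold enrichment on 9 IP reads. In the 10000 bp upstream of Trp53, both replicates had a peak in an exon of Wrap53, which is transcribed the opposite way, with 3.63-fold and 2.44-fold enrichment. The summit in the first exon of Trp53 lay in no exon of Wrap53, but the lists carry no strand. Downstream of Cdkn1b, replicate 1 had a peak of 10.6-fold enrichment where exons of the noncoding RNA Lockd and of Gm44238 overlap, so it cannot be given to either alone. Upstream of Cdkn1c, 3059 and 3047 bp from the gene, both replicates had a peak in no annotated exon (chr7:143463940-143464607 and chr7:143463948-143464509), with fold enrichment of 6.35 and 10.1. They rested on 22 and 16 IP reads, more than the peak in Cdkn1c itself.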

How the data were processed

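The authors aligned the reads of each replicate to GRCm38 (mm10) with HISAT2 and called peaks per replicate with MACS2 (version 2.1.1.20160309, nomodel flag). The threshold, the treatment of duplicate reads and the control library are not given in the sources used here. Columns of the deposited lists are fold enrichment (the ratio of IP to local background at the summit, with 1 added to each), −log10 p and −log10 q, a score that is the whole part of a multiple of −log10 q, and the offset of the summit.

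Exons were those of the GENCODE M21 basic set, which is on the same build, and sequences were those of GENCODE M21 transcripts. Positions refer to the transcript with the longest coding sequence. No p-value was computed, since there is 1 group of 2 IP samples and no contrast. Exact (Clopper-Pearson) and Poisson intervals are at 95% and cover counting error at most. The exact interval of shared peaks takes the peaks of a pair as independent. IP reads at the summit were solved from fold and −log10 p, and whole numbers matched 100% of peaks in each list within 0.001. Library totals are unknown. On 3000 simulated peaks 100% of IP reads were recovered, and 2000 simulated transcript positions were placed with 100% recovery. The simulated peaks were made with the formula that was then solved, and the positions were converted to the genome and back. Both therefore check the code and not the real read counts. The 50 nt around a summit matched the genome once for 24 of 25 peaks, and the other spans a splice junction. Python 3.11.15 with pandas 2.3.3 and SciPy 1.17.1 was used.

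The members and lists were chosen with earlier results of these data known. Named are all members, and from each list of the p53 network the 3 genes with the highest mean −log10 q among those with a peak in both replicates, plus those without a peak. Alternatives were any overlap with an exon, the comprehensive set, minimum fold 4, minimum −log10 q 5, single-gene summits, other overlap rules, wider windows, other motifs and leaving out a replicate.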

Additional observations from a re-analysis of the deposited data

How the results depend on the processing

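Of 64 values recomputed under the alternatives, 50 stayed within 1.5 times the reported count or within the spread or interval of the reported value. Under a minimum fold enrichment of 4 the genes of the set with a peak in both replicates were 4, and the peaks 8 in replicate 1 and 4 in replicate 2. By construction the median fold then was 5.50. The genes that kept a peak in both replicates there were Gadd45b, Gadd45g, Cdkn1a and Cdkn1c, of which only Gadd45g rested on more than 26 IP reads, and 13 genes of the p53 network kept one. The share of all protein-coding genes with a peak in both replicates was 32.6% with any overlap, 31.6% with the comprehensive set, 16.9% with the minimum fold, 28.9% with a minimum −log10 q of 5 and 29.1% with summits in exons of several genes left out. With 1 replicate left out it was 33.5% to 34.4%. GGAC was near 83.3% of summits of the set within 100 nt, and 45.8% were within 400 nt of the stop codon.

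With a minimum −log10 q of 5, Cdkn1b had no peak in replicate 1, so that 8 genes kept a peak in both. Trp53 lacked a peak in replicate 2 under every way of giving peaks to genes. The search for GGAC followed by A, C or T was added after the data were seen. No paired analysis was possible because the input samples have no values here and no groups were compared. Depth limits Cdkn1c, Gadd45b and Cdkn1a most, with 10 to 26 IP reads.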
